A study of Mus musculus with 6 samples.

Results

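In activated mouse T cells, 10 genes of amino acid transport were examined: Slc7a5, Slc3a2, Slc1a5, Slc38a1, Slc38a2, Slc7a1, Slc7a6, Slc7a7, Slc1a4 and Slc43a1. They were found by matching the Ensembl identifiers of the gene and transcript count tables to these symbols, which gave 10 of 52550 gene rows (22526 of which held at least 1 count) and 53 of 131146 transcript rows. RNA came from wild-type primary CD3+ T cells of mouse spleen, all stimulated for 24 h with antibodies to CD3 and CD28. In 3 biological replicates nothing else was added (TCR alone), and 3 are labelled as also given DMGV, at 100 ng/ml (TCR+DMGV). DMGV is dimethylguanidino valeric acid, a keto acid that the enzyme AGXT2 makes from methylated arginines. The agent is called DMGV in the sample labels and LNY1, a factor of fibroblast conditioned medium, in the study's account of this experiment. That account gives 100 ng/ml as the dose of LNY1. The study equates LNY1 with ADMA and SDMA (asymmetric and symmetric dimethylarginine), the methylated arginines from which AGXT2 makes DMGV. The group name follows the labels, and "with DMGV" below means samples so labelled. The study's methods list young mice of both sexes, C57BL and BALB/c among them, and magnetic isolation of the T cells. They do not say which strain gave the cells of this experiment, and no strain, age or sex is given for a single sample.

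A resting T cell that is stimulated through its receptor grows before it divides, and this growth draws on amino acids imported through solute carrier proteins of the plasma membrane. Slc7a5 (LAT1) is a light chain that carries large neutral amino acids such as leucine and reaches the cell surface bound to the heavy chain Slc3a2 (CD98), which also pairs with Slc7a6 and Slc7a7. Leucine and arginine inside the cell are sensed by mTORC1, a kinase complex at the lysosome, and transcription of several transporter genes is known to depend on Myc and Atf4.

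None of the 10 genes passed the test for a difference between TCR+DMGV and TCR alone, and in none did the 3 values of one group lie apart from the 3 of the other. The 7 genes with a mean above 32 CPM (counts scaled to library size) differed by 0.12 or less on the log2 scale, and the 95% intervals of all 7 stayed within 0.33, a 1.26-fold change in either direction. The genes covered a wide range of levels, from Slc7a5 at 97.0 FPKM (a fragment count scaled to transcript length and library size) to Slc7a7 at 0.149. As a share of its gene's counts, the transcript of Slc1a5 that keeps an intron took 33.2 to 39.3% in TCR alone and 40.7 to 47.7% in TCR+DMGV, although its own change did not pass the test. Shares lay apart between the groups for 2 of the 19 main transcripts of the 10 genes. Over all genes they did so for 9.13% of the tested main transcripts that did not hold all counts of their gene.

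The libraries held 37758725 to 43718867 gene counts each. On the first principal component of log2 CPM, which took 32.2% of the variance, TCR alone replicate 3 and TCR+DMGV replicate 1 stood at 42.1 and 42.9 and the other 4 libraries between -34.9 and -10.5, and some estimates are given below without these 2 libraries too. T cell markers summed to 1090 to 1230 FPKM in TCR alone and 1160 to 1290 in TCR+DMGV, and none of the 12 was under 0.1 FPKM in every sample. Estimates were above 0 for 11 of these 12, with a median log2 fold change of 0.113. For 3 of them, Cd4, Cd5 and Zap70, every sample of TCR+DMGV was above every sample of TCR alone in CPM. Markers of macrophages and monocytes summed to 2.49 to 4.03 and 2.53 to 3.76 FPKM. Of these 14, Csf1r, at 1.23 to 1.62 FPKM, and Cd68, at 1.05 to 1.86, were present in every sample. Under 0.1 FPKM in every sample were 9 of the 14, among them Adgre1, Cd14 and Fcgr1, and all 8 neutrophil markers. The B cell list summed to 118 to 132 and 115 to 123 FPKM, of which Ighm made up 115 on average. Activation markers such as Irf4 summed to 882 to 911 and 897 to 940, with estimates above 0 for 4 of 8. Of these 8, Nr4a1 alone was apart, higher in TCR+DMGV (log2 fold change 0.32, edgeR unadjusted p = 0.012, adjusted p = 0.999). Dendritic cell markers summed to 1.02 to 1.44 and 1.17 to 1.44, and NK cell markers to 11.8 to 14.3 and 13.3 to 16.7, of which Eomes made up 13.2 on average. The highest of the other NK cell markers, Ncr1, averaged 0.201 FPKM, and the median log2 fold change of the list rests mostly on such low genes. Of the 6 NK cell markers 4 were tested, all with estimates above 0 and a median log2 fold change of 0.751, and Klre1, at 5, 23 and 18 counts against 41, 36 and 47, was apart between the groups (edgeR unadjusted p = 0.0383, adjusted p = 0.999). The 7 erythroid markers summed to 4.70 to 5.83 FPKM in TCR alone and 2.28 to 4.24 in TCR+DMGV, ranges that did not overlap. Of the 5 tested, 2 were apart: Hba-a1, at 47, 44 and 43 counts against 11, 13 and 36, and Hba-a2, at 49, 39 and 42 against 14, 15 and 30. Hbb-bs, Hbb-bt and Klf1 overlapped, and the estimate of Hbb-bt was above 0. Groups were apart for 8.86% of all genes tested. The part of these marker differences in the values below was not tested. In bulk RNA, fewer cells of a type and less RNA per cell cannot be told apart.

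Because the transcripts of Slc1a5 differ by a short stretch, their sequences are shown first (GENCODE M21 transcripts, GRCm38). Slc1a5-202 has the exons of the coding transcript Slc1a5-201, with a slightly later start, but keeps the intron at chr7:16795953-16796023 on the plus strand, 71 bases between the seventh and the eighth exon of Slc1a5-201, both coding. The retained intron is in capitals below with 12 bases of exon on each side. In Slc1a5-201 the same exons are joined, and capitals mark the 4 bases at the join.
Slc1a5-202: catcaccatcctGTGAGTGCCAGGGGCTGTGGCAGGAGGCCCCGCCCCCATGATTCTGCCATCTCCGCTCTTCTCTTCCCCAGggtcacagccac
Slc1a5-201: catcaccatcCTGGtcacagccac
The intron starts with GT and ends with AG, and 66.2% of its bases are G or C. Read on in the frame of Slc1a5-201, a TGA stop codon starts at base 2 of the intron.

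The levels of the genes were compared in FPKM, which divides by length. Slc7a5 (ENSMUSG00000040010.10, chr8:121881150-121907694, minus strand) was the highest of the 10. Its FPKM was 104, 95.2 and 106 in TCR alone and 90.3, 97.4 and 89.6 in TCR+DMGV, which placed its mean at percentile 97.8 of genes with counts. Slc1a5 (ASCT2, a sodium-dependent carrier of glutamine and other neutral amino acids, chr7:16781340-16798274, plus strand) followed at 61.2 ± 3.93 FPKM (SD, n = 6), and no value of the 2 genes overlapped. Slc38a1 (SNAT1, a sodium-coupled carrier of glutamine and alanine, chr15:96571418-96642913, minus strand) followed Slc1a5 at 47.2 ± 2.30. Slc3a2, the heavy chain (chr19:8706882-8723369, minus strand), stood at 38.7 ± 2.73 and Slc38a2 (SNAT2, the related carrier known to be induced by amino acid shortage, chr15:96687392-96699730, minus strand) at 34.4 ± 3.21. These were the only neighbours in the order whose values overlapped, at 34.6 to 41.0 and 31.0 to 40.5 FPKM.

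Slc7a1 (CAT1, a carrier of arginine and lysine, chr5:148327410-148399904, minus strand) came next at 26.7 ± 1.23 FPKM. Slc7a6 (y+LAT2, a light chain that exchanges cationic for neutral amino acids, chr8:106168857-106198706, plus strand) was the lowest of the 7 well expressed genes at 16.3 ± 0.986, so that Slc7a5 was 5.94-fold higher. Then came a gap. Slc1a4 (ASCT1, a carrier of alanine, serine and cysteine, chr11:20302180-20332713, minus strand) stood at 2.97 ± 0.544 and Slc43a1 (LAT3, a sodium-independent carrier of branched-chain amino acids, chr2:84838850-84863594, plus strand) at 2.02 ± 0.203. Slc7a7 (y+LAT1, the other cationic exchanger that uses Slc3a2, chr14:54369442-54417780, minus strand) was at 0.149 ± 0.0922 FPKM, with counts of 8, 21 and 16 without DMGV and of 52, 17 and 28 with it. Its exons overlap those of Oxa1l on the other strand, which had 2807 to 3868 counts, and whether the counting used strand is not given in the sources used here.

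**Figure D1:**
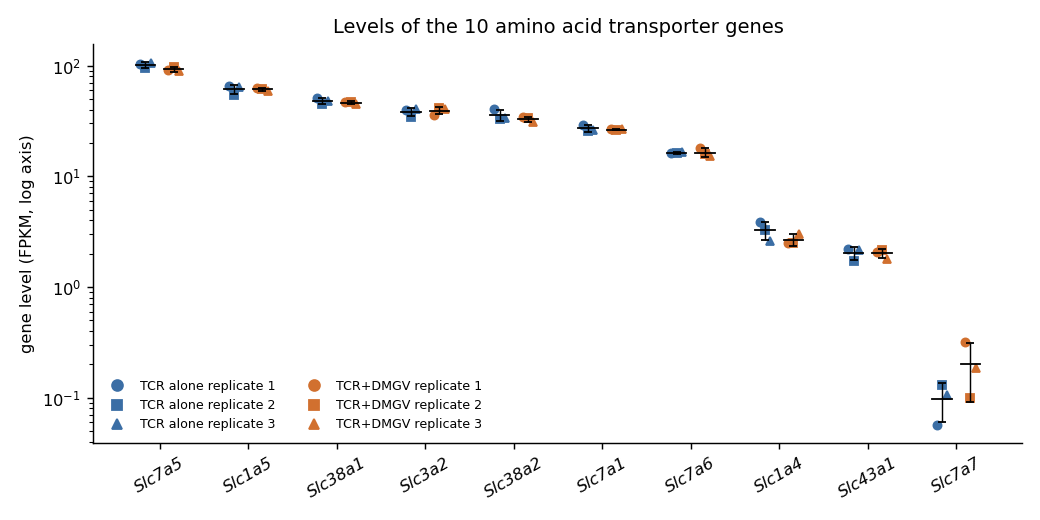
FPKM (log axis) of the 10 genes in each of the 6 samples, ordered by mean, with TCR alone in blue, TCR+DMGV in orange, a symbol per replicate, and a horizontal line with bars for the mean and SD of each group. The groups overlap for every gene, and the genes span from 97.0 FPKM for Slc7a5 to 0.149 for Slc7a7.

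The order depended on the length used. With CPM divided by the full annotated exon length, which is 17236 bases for Slc38a1, Slc38a1 fell behind Slc3a2 and Slc7a1: their means were 25.8, 43.6 and 30.1 CPM per kilobase. On that scale Slc38a2 and Slc7a6 were the overlapping neighbours, with means of 20.2 and 18.4. Slc7a5 and Slc1a5 remained first and second, and the last 3 genes kept their order.

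The change of each gene was tested on the counts of the whole table with edgeR's quasi-likelihood test, and its level per sample is given in CPM, which is not divided by length. Slc7a5 stood at 429, 404 and 430 CPM in TCR alone and at 369, 412 and 382 in TCR+DMGV. TCR+DMGV replicate 2 lay inside the range of TCR alone and the other 2 below it. The log2 fold change was -0.12 (SE 0.073, 95% interval -0.29 to 0.05, edgeR unadjusted p = 0.145 and adjusted p = 0.999). For its partner Slc3a2 the values were 155, 140 and 158 CPM in TCR alone and 140, 165 and 165 in TCR+DMGV. Here 2 of the 3 samples with DMGV were above every sample without it and the other was level with the lowest of them. The log2 fold change was 0.055 (SE 0.094, interval -0.17 to 0.28). Without the 2 libraries apart on the first component, the estimates were -0.066 for Slc7a5 and 0.16 for Slc3a2.

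The light and heavy chain thus had estimates of opposite sign, and their ratio, a comparison chosen after the values were seen, was calculated within each sample. The FPKM of Slc7a5 divided by that of Slc3a2 was 2.63, 2.75 and 2.60 in TCR alone and 2.50, 2.38 and 2.20 in TCR+DMGV. All 3 samples with DMGV were below all 3 without it, with means of 2.36 ± 0.15 and 2.66 ± 0.0807 (SD, n = 3). On the log2 scale the ratio was lower by 0.17 (log2 difference -0.17), with an exact permutation p of 0.1, two-sided, which is the smallest that 3 against 3 samples can give. This p cannot decide whether the ratio differs, because the pair was picked from the same values. Groups were apart in CPM for 8.86% of single genes, and how often the ratios of other gene pairs are apart was not calculated.

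The glutamine carriers differed little. Slc1a5 was at 304, 262 and 294 CPM in TCR alone and 289, 293 and 282 in TCR+DMGV, all of the latter within the range of the former, and its log2 fold change of 0.01 had an interval of -0.18 to 0.19. Slc38a1, at 477, 431 and 444 CPM against 432, 452 and 435, likewise had every value with DMGV inside the range without it. Its log2 fold change was -0.04 (interval -0.20 to 0.13). Slc38a2 was at 209, 176 and 172 CPM in TCR alone and 174, 177 and 165 in TCR+DMGV. TCR alone replicate 1 was the one high value, and the log2 fold change was -0.11 (interval -0.33 to 0.11), or -0.032 without that sample.

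Of the carriers of cationic amino acids, Slc7a1 stood at 375, 342 and 332 CPM in TCR alone and 339, 342 and 351 in TCR+DMGV, with a log2 fold change of -0.02 (interval -0.19 to 0.15). Slc7a6 stood at 81.9, 84.5 and 83.0 CPM in TCR alone and 91.2, 83.5 and 79.5 in TCR+DMGV. The samples with DMGV lay on both sides of the narrow range without it, and the log2 fold change was 0.03 (interval -0.16 to 0.22). Slc7a7 had the largest estimate of the 10, a log2 fold change of 1.02, and also the widest interval, -0.29 to 2.33 (edgeR unadjusted p = 0.108, adjusted p = 0.999). With the counts given above, TCR+DMGV replicate 1 held more than any other library and the other 5 held between 8 and 28. Without TCR alone replicate 3 and TCR+DMGV replicate 1, the 2 libraries apart on the first component, the estimate was 0.60.

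Of the remaining carriers, Slc1a4 was at 17.0, 14.8 and 11.4 CPM in TCR alone and at 10.7, 11.3 and 13.7 in TCR+DMGV. TCR alone replicates 1 and 2 were above all samples with DMGV, and replicate 3 was within them. Its log2 fold change was -0.27 (SE 0.179, interval -0.69 to 0.15, edgeR unadjusted p = 0.171 and adjusted p = 0.999). Without TCR alone replicate 3 it was -0.41, with an edgeR unadjusted p of 0.0353 and an adjusted p of 0.649. Slc43a1, at 14.0, 11.4 and 13.5 CPM against 13.2, 14.2 and 11.9, had a log2 fold change of 0.01 (interval -0.30 to 0.33).

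**Figure D2:**
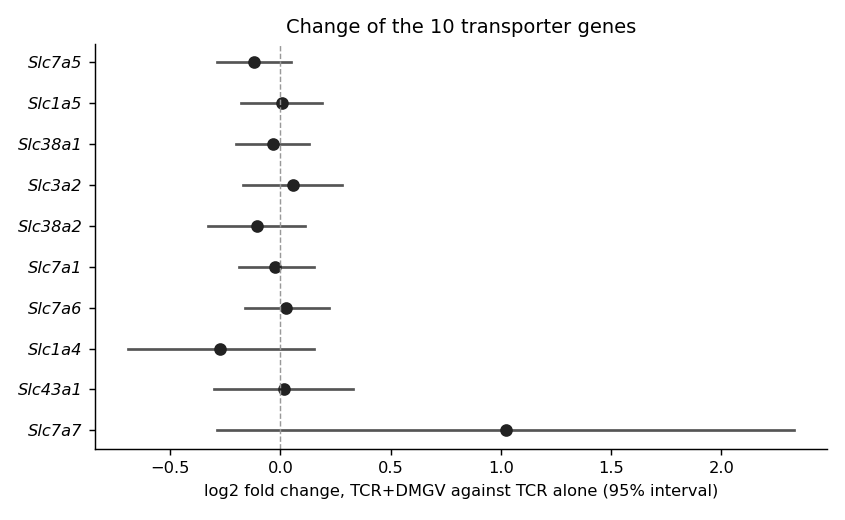
Log2 fold change of TCR+DMGV against TCR alone (horizontal axis) for the 10 genes in the order of their level, with points for the edgeR estimate and lines for the 95% interval. All 10 intervals include 0, and that of Slc7a7, from -0.29 to 2.33, is the widest.

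Over all 10 genes, 0 passed edgeR's test with Benjamini-Hochberg adjustment at 0.05, against 0.0135% of the 14786 genes tested, which is 1 gene higher and 1 lower. At an unadjusted p under 0.05 the count was also 0 of 10, against 3.19% of all genes, and DESeq2 called 0 of 10 against 0.0854% of all genes. The groups did not overlap in CPM for 0 of the 10, against 8.86% of all genes. The estimates were above 0 for 5 and below 0 for 5, with a median of -0.007 beside 0.0024 for all genes tested.

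Of the 53 listed transcripts of the 10 genes, 45 had counts and 30 were tested. edgeR called 0 of 30, as it did for 0% of the 38401 transcripts tested, and 0 of 30 had an unadjusted p under 0.05, against 3.22% of all. In CPM the groups did not overlap for 0 of the 30, against 9.25% of all transcripts tested. DESeq2 gave an adjusted p for 42 of the 45 and called 0, against 0.724% of the 53479 transcripts with one. Of the 45, 1 had a DESeq2 unadjusted p under 0.05, against 4.17% of all. It was Slc3a2-205 (ENSMUST00000205538.1), a short coding transcript of 402 bases whose counts were 14, 6 and 8 without DMGV and 0, 0 and 0 with it, named after its values were seen (DESeq2 adjusted p = 0.0522). In edgeR with every transcript kept, its adjusted p was 0.845.

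Slc7a5, Slc38a2, Slc7a1 and Slc3a2 were carried almost wholly by 1 transcript in every sample. Slc7a5-201 took 99.9% or more of the counts of Slc7a5, Slc38a2-201 all of those of Slc38a2, Slc7a1-201 at least 99.5% and Slc3a2-201 between 96.5 and 98.5%. For Slc7a1-201 the shares of the groups did not overlap, at 99.6, 99.7 and 99.6% against 99.5, 99.5 and 99.5%. Slc1a4-201 took 86.0 to 93.6%, with Slc1a4-202 as the rest.

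Slc1a5 was divided between a coding transcript and one that keeps an intron. Slc1a5-202 (ENSMUST00000127401.7), the transcript with the 71 retained bases shown above, had 3834, 4044 and 4786 counts in the samples without DMGV and 5810, 6010 and 4550 in those with it. As a share of the gene's counts this was 33.2, 37.9 and 39.3% against 45.1, 47.7 and 40.7%, so that all 3 samples with DMGV were above all 3 without it. The means were 36.8% ± 3.20 and 44.5% ± 3.51 (SD, n = 3). The coding transcript Slc1a5-201 (ENSMUST00000108496.8) had 7360, 6041 and 6462 counts against 6254, 5950 and 5941. Its shares were 63.8, 56.6 and 53.1% in TCR alone and 48.6, 47.2 and 53.2% in TCR+DMGV, which overlapped at TCR alone replicate 3 and TCR+DMGV replicate 3.

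Neither change passed the test. For Slc1a5-202 the log2 fold change in CPM was 0.29 (95% interval -0.01 to 0.58, edgeR unadjusted p = 0.0558 and adjusted p = 1.0), or 0.34 without the 2 libraries apart on the first component, and for Slc1a5-201 it was -0.21 (interval -0.51 to 0.08, unadjusted p = 0.126), or -0.11 without TCR alone replicate 1. Among the 19 transcripts with a mean share of 10% or more in either group, the shares did not overlap for 2, Slc1a5-202 and Slc7a1-201. Over all genes this held for 9.13% of 17349 such transcripts that were tested and did not hold all counts of their gene. The 19 also include Slc38a2-201, which held all counts of its gene, and Slc7a7-206, which was not tested. The share of Slc1a5-202 in the deposited transcript FPKM was 30.6, 33.4 and 33.4% in TCR alone and 39.2, 42.3 and 35.3% in TCR+DMGV, and did not overlap either. Slc1a5-206 is a short transcript that also keeps intron sequence, with 255, 546 and 876 counts against 695, 572 and 585. Counts of transcripts that share most of their bases rest on the few reads that cross the stretch in which they differ, and how the authors' counting divided the rest is not given in the sources used here.

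**Figure D3:**
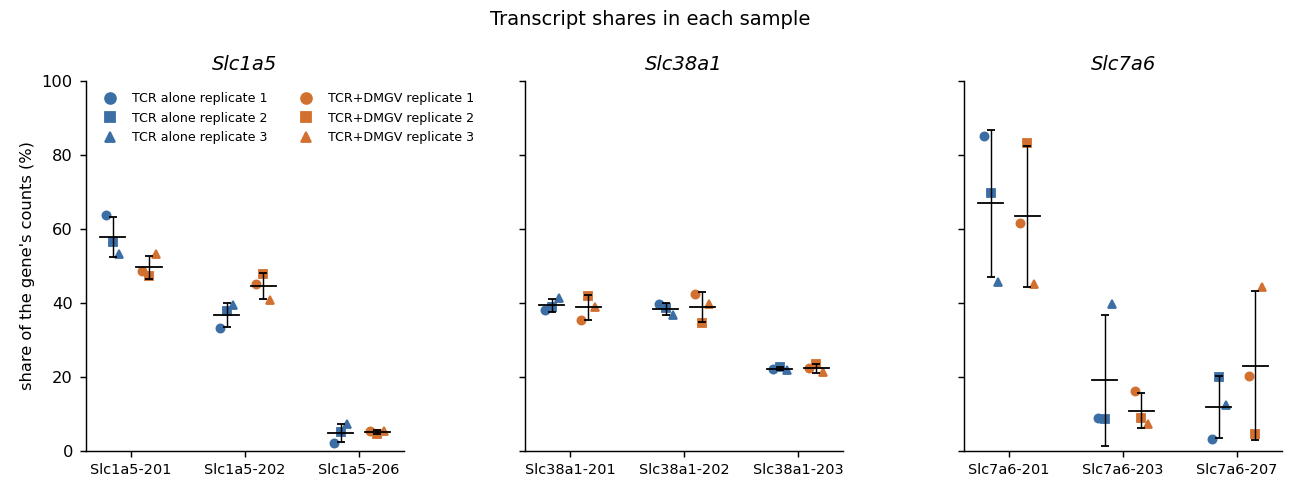
Share of the gene's counts (percent) taken by the 3 leading transcripts of Slc1a5, Slc38a1 and Slc7a6 in each sample, with TCR alone in blue, TCR+DMGV in orange, a symbol per replicate and lines for the mean and SD of each group. The 3 orange points of Slc1a5-202 (40.7 to 47.7%) lie above the 3 blue ones (33.2 to 39.3%), the shares of Slc38a1 are even, and those of Slc7a6 are scattered within both groups.

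Slc38a1 had 3 coding transcripts in steady proportion. Slc38a1-202 took 34.5 to 42.3% of the counts, Slc38a1-201 took 35.4 to 41.9% and Slc38a1-203 took 21.2 to 23.6% across the 6 samples. The first 2 start at different first exons and share the same 3′ end, while Slc38a1-203 ends earlier and measures 3183 bases beside 6966 and 7266. Their log2 fold changes were -0.02, -0.06 and -0.03.

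Slc7a6 was the least even. Its coding transcript Slc7a6-201 held 2651, 2407 and 1569 counts without DMGV and 2504, 2993 and 1420 with it, which was 45.1 to 85.2% of the gene. Slc7a6-203, annotated as a target of nonsense-mediated decay, held 276, 299 and 1360 counts without DMGV and 656, 317 and 232 with it. Slc7a6-207, which keeps an intron, had 96, 691 and 429 against 820, 160 and 1399. The spread was thus within the groups: Slc7a6-203 was highest in TCR alone replicate 3, at 39.6% of the gene beside 8.87 and 8.67% in the other 2 replicates, and Slc7a6-207 was highest in TCR+DMGV replicate 3, at 44.4%. The total of the gene stayed between 79.5 and 91.2 CPM through this. The log2 fold changes of the 3 transcripts were -0.04, -0.77 and 0.94, with intervals of -0.85 to 0.77, -2.63 to 1.09 and -1.48 to 3.36.

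Slc7a6-203 lacks chr8:106179288-106179486 on the plus strand, 199 coding bases of the second exon of Slc7a6-201. They are shown in capitals, with 12 bases on each side, because they are the coding sequence that separates the transcripts. Slc7a6-201 also starts earlier and ends later, at 106198706 beside 106197845. In Slc7a6-203 the ends are joined, and capitals again mark the 4 bases at the join.
Slc7a6-201: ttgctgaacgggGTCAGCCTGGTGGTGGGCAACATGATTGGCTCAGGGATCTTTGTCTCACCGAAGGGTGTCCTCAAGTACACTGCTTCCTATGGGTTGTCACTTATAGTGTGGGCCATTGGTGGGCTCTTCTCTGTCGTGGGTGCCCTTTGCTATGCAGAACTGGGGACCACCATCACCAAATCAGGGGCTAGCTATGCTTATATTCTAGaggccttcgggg
Slc7a6-203: ttgctgaacgGGAGgccttcgggg
The stretch missing from Slc7a6-203 also starts with GT and ends with AG, although in Slc7a6-201 it is exon.

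Slc7a7 and Slc43a1 were divided unevenly as well. For Slc7a7 all counts of a sample went to a single transcript. This was Slc7a7-206 in the first replicate of both groups, with 8 and 52 counts, and Slc7a7-201 in the other 4 samples, with counts of 21 and 16 without DMGV and of 17 and 28 with it. For Slc43a1, Slc43a1-202 took 45.9 to 62.7%, Slc43a1-203 took 14.3 to 34.8% and Slc43a1-204 took 3.82 to 26.1%, each with overlap between the groups.

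Genes whose pattern over the 6 samples was most like that of 3 of the carriers were sought among 11162 genes, by the root mean square (RMS) difference of centred log2 CPM. For Slc7a5 these were Slc12a7 (RMS difference 0.0141), Rad54l (0.0225) and Bcr (0.0296), where the SD of Slc7a5 itself was 0.0895. For Slc3a2, with an SD of 0.108, they were Txnrd3 (0.0250), Rara (0.0265) and Rnf157 (0.0284). For Slc7a7, the most variable of the 10 with an SD of 0.763, the nearest was Hist1h2ae at 0.311. All 6 samples of each gene enter these values, and they share libraries and depth.

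The rest of amino acid transport was described by 5 further lists, and 0 genes of any list passed edgeR's adjusted threshold. Of 26 other transporters of the plasma membrane, 14 had enough counts to be tested and 1 had an unadjusted p under 0.05. It was Slc7a3, a carrier of cationic amino acids like Slc7a1 but far lower. It stood at 2.98, 2.62 and 3.38 CPM in TCR alone and 1.51, 2.21 and 2.09 in TCR+DMGV, with no overlap, and its log2 fold change was -0.63 (interval -1.18 to -0.08, edgeR unadjusted p = 0.0306, adjusted p = 0.999). The median of the 14 was -0.025, with 6 above 0 and 8 below, and the groups did not overlap for 2, against 8.86% of all genes.

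Of the 10 carriers of lysosomes and vesicles that were matched, 9 were tested, 0 had an unadjusted p under 0.05 and the median was -0.008. The groups did not overlap for 1 of the 9, against 8.86% of all genes. The smallest p was that of Slc36a1, a proton-coupled carrier of small neutral amino acids, at 3.66, 8.06 and 4.08 CPM against 3.64, 3.39 and 2.30. The groups lay apart by a narrow margin, with TCR alone replicate 2 as the high value, and the log2 fold change was -0.76 (interval -1.58 to 0.06). Of 12 mitochondrial carriers 11 were tested and 1 had an unadjusted p under 0.05. Slc25a12, the aspartate-glutamate carrier also called Aralar, was at 86.1, 90.3 and 82.1 CPM in TCR alone and 100.0, 103 and 96.7 in TCR+DMGV. All 3 samples with DMGV were higher, and the log2 fold change was 0.22 (interval 0.04 to 0.39, edgeR unadjusted p = 0.0245, adjusted p = 0.999). The median of the 11 was 0.028, and the groups did not overlap for 3 of them, against 8.86% of all genes.

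All 35 matched genes of amino acid sensing by mTORC1 were tested, with 22 above 0, 13 below and a median of 0.018. Kptn, a subunit of the KICSTOR complex that anchors the GATOR1 inhibitor at the lysosome, had the smallest p. It was at 11.1, 10.8 and 12.9 CPM against 17.1, 15.5 and 13.3, each sample with DMGV above each without, and its log2 fold change was 0.40 (interval 0.07 to 0.73, edgeR unadjusted p = 0.0231, adjusted p = 0.999). It was the only one of the 35 with an unadjusted p under 0.05 or with groups apart, against 3.19% and 8.86% of all genes.

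Among 12 genes that regulate transporter genes, Myc stood at 313, 310 and 337 CPM in TCR alone and 358, 326 and 323 in TCR+DMGV. Atf4, the factor that raises transporter genes when amino acids are short, was at 304, 281 and 329 against 344, 305 and 318. Both overlapped between the groups, with log2 fold changes of 0.07 (interval -0.11 to 0.25) and 0.08 (interval -0.12 to 0.28). Cebpb, a leucine zipper factor that can pair with Atf4, had the smallest p of all 5 lists. It was at 29.5, 25.0 and 25.7 CPM in TCR alone and 19.2, 18.5 and 18.1 in TCR+DMGV, with every sample with DMGV lower. Its log2 fold change was -0.52 (SE 0.102, interval -0.76 to -0.28, edgeR unadjusted p = 0.00129), and the adjusted p over all genes was 0.999 in edgeR and 0.0992 in DESeq2. The median of the 12 was -0.044, with 4 above 0 and 8 below, and the groups did not overlap for 1, Cebpb, against 8.86% of all genes.

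**Figure D4:**
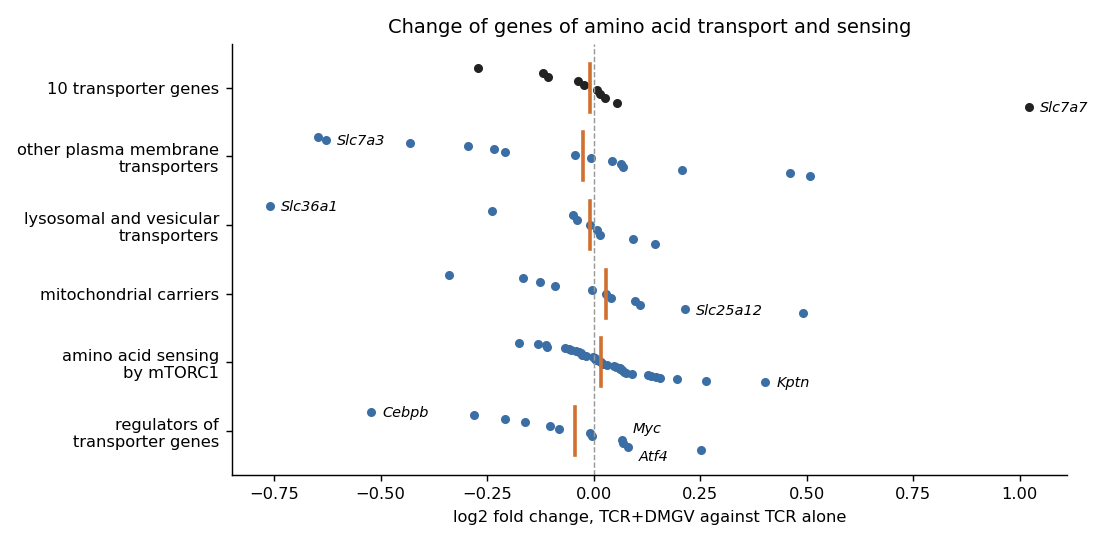
Log2 fold change of TCR+DMGV against TCR alone (horizontal axis) for each tested gene of the 10 transporter genes and of 5 further lists, 1 point per gene and an orange line at the list's median. The medians lie between -0.044 and 0.028, and the named genes are those of smallest p in a list, with Myc and Atf4.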

How the data were processed

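RNA-seq of 6 samples was analysed, 3 per group, as the sample labels give them. The authors filtered reads with SOAPnuke, mapped them with HISAT2 2.0.4 (genome build mm9 in the submitters' processing notes) and computed expression with StringTie. The deposited counts are whole, unnormalized numbers per gene and transcript, and the deposited FPKM values are divided by length and by depth. How the counts were made is not given in the sources used here. Identifiers matched GENCODE M21 (GRCm38) for 99.7% of gene rows without the version and 93.3% with it, and all coordinates and symbols are from that annotation.

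The whole count tables were fitted with edgeR 4.0.16 (R 4.3.3, TMM normalization, default low-count filter, quasi-likelihood test, two-sided, Benjamini-Hochberg adjustment, threshold 0.05), by group alone. The gene fit was also checked on simulated counts, with changes larger than the estimates of the well expressed members. The transcript fit was not checked in this way. The precision rests on 3 replicates and on 37758725 to 43718867 counts per library, and no 2 libraries were as alike as duplicates. Transcript counts summed to the gene count for 99.69% of 52399 genes. Alternatives were DESeq2 1.42.0, other scalings and filters, a replicate block, limma 3.58.1 on log2(FPKM + 1) or log2(FPKM + 0.1), summed transcript counts and samples left out. The members and lists were chosen with earlier results of these data known. All 10 members are named, and of each list the gene of smallest unadjusted p and any past the threshold, Myc and Atf4, and member transcripts with 10% or more of their gene. Of 183 list symbols 178 were matched. Tables were handled with Python 3.11.15 and pandas 2.3.3.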

Additional observations from a re-analysis of the deposited data

How the results depend on the processing

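No transporter gene, transcript or listed gene passed the adjusted threshold under any alternative run. The counts of all genes called did move: 14 with DESeq2, 12 without the 2 libraries apart on the first component and 5 without TCR+DMGV replicate 1, but 1 with library size alone or with every gene kept, and 0 with limma or without any 1 of the TCR alone replicates or TCR+DMGV replicate 2, beside 2 with all samples. For transcripts DESeq2 called 387 and edgeR 0. Estimates near 0 changed sign. With library size alone, Slc1a5 was at -0.0073 and Slc43a1 at -0.00023. With limma on log2(FPKM + 1) Slc1a5 was at -0.0053 and Slc43a1 at -0.0020, and with log2(FPKM + 0.1) they were at -0.0053 and -0.0018. Slc7a6 was at -0.028 without the 2 libraries apart. Leaving out 1 sample at a time gave -0.00084 to 0.13 for Slc3a2, -0.057 to 0.035 for Slc1a5, -0.053 to 0.013 for Slc7a1, -0.032 to 0.072 for Slc7a6 and -0.075 to 0.081 for Slc43a1, with no cause tested. Slc7a5 stayed below 0 at -0.16 to -0.088, Slc38a2 at -0.16 to -0.032, Slc38a1 at -0.07 to -0.0098, Slc1a5-201 at -0.31 to -0.11 and Slc1a4 at -0.41 to -0.15, while Slc7a7 ran from 0.56 to 1.33. Slc7a7 was at 0.13 with log2(FPKM + 1) and 0.56 with log2(FPKM + 0.1). Without the 2 libraries apart Slc38a2 was at -0.17 and Slc1a4 at -0.34. The transcript Slc1a5-202 stayed at 0.21 to 0.35, with an edgeR unadjusted p of 0.0376 without TCR alone replicate 3 or without TCR+DMGV replicate 3, and of 0.0473 with transcripts under a mean of 1 CPM left out. The log2 ratio of Slc7a5 to Slc3a2 was -0.22 to -0.12 with 1 sample left out, and -0.17 in counts, both added after the data were seen.

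The labels do not say whether samples with the same replicate number share mice. Deviations of samples with the same number correlated at -0.154, 0.121 and -0.148, and 2 of 6 samples correlated best with their own number. TCR alone replicate 3 and TCR+DMGV replicate 1, the 2 libraries apart on the first component, correlated at 0.31. Because that pattern can hide a weaker one, these values cannot decide whether samples were paired. With the replicate number as a block, 0 of the 10 genes, 0 of their transcripts and 0 of all 14786 genes were called.

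Precision is limited by 3 replicates per group: Slc7a7, at 8 to 52 counts, had an interval from -0.29 to 2.33.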
